A study of Danio rerio and Aquarana catesbeiana with 12 samples.

Results

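Of 25115 contigs counted in American bullfrog retinal pigment epithelium (RPE), 166 stood far higher in ventral than in dorsal tissue and are described here. They were chosen on their levels in CPM (counts per 1000000, a contig's reads as a scaled share of all reads of its library). A contig was a member when its mean log2(CPM + 0.5) in the ventral libraries exceeded that in the dorsal libraries by at least 2.2, its lowest ventral CPM exceeded its highest dorsal CPM, and its mean ventral CPM was at least 2. The difference was reached by 170 contigs, of which 4 had overlapping regions and were left out, and the minimum level removed none of the other 166. The level in each region, the size of the difference and the separation of the libraries were therefore used in the choice, and they are given below as description. The order of the libraries within a region, coding length and component structure were not part of it.

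The study measured RNA of dissected RPE in ventral and dorsal bullfrog RPE, with 3 libraries of each region and no treatment. RNA was extracted with phenol and chloroform, treated with DNase and depleted of ribosomal RNA, and the 6 libraries shared 1 sequencing lane. The labels give neither strain nor age and do not tie the replicates of a region to individual animals, and a p-value here reflects only how these libraries vary, which may be technical variation. The series also holds 6 libraries of zebrafish RPE after thyroid hormone or vehicle, which entered no comparison here. Counts summed to 12000358, 11433616 and 9976021 in ventral replicates 1 to 3, and to 8589212, 10868432 and 9511205 in dorsal replicates 1 to 3. At these depths 3 reads were worth 0.25 to 0.349 CPM.

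The RPE is a single sheet of pigmented cells behind the photoreceptors. It recycles the vitamin A derivative that visual pigments need, takes up the shed tips of photoreceptors and exchanges nutrients and waste with the choroid. The adult bullfrog eye is known for a division along its vertical axis: photoreceptors of the dorsal retina carry pigment based on vitamin A2, and those of the ventral retina pigment based on vitamin A1. The series was made around the enzyme Cyp27c1, which converts vitamin A1 to A2. A contig here is a stretch assembled from sequencing reads. Its identifier gives a component (contigs that the assembler could not fully separate, often forms or close copies of a gene), a numbered form within it, and a reading frame predicted on that form. The files do not pair the identifiers with gene names, so no gene is named, the function of the members is not given, and markers of RPE or of neighbouring eye tissue were not checked.

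The members covered a wide range of levels. Their mean ventral level had a median of 16.2 CPM and ran from 2.203 to 1970 CPM, and their mean dorsal level had a median of 2.04 CPM and ran from 0.0307 to 377 CPM. Among all contigs the medians were 6.08 CPM in ventral and 5.28 CPM in dorsal RPE. In ventral RPE 15 members stood at 2 to 5 CPM, 39 at 5 to 10, 77 at 10 to 50, 16 at 50 to 100 and 19 at 100 or more. Of the 10% of contigs with the highest mean ventral CPM, 34 were members. Since each value is a share of a library's RNA, fewer cells that make a transcript and less of it per cell cannot be told apart.

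**Figure D1:**
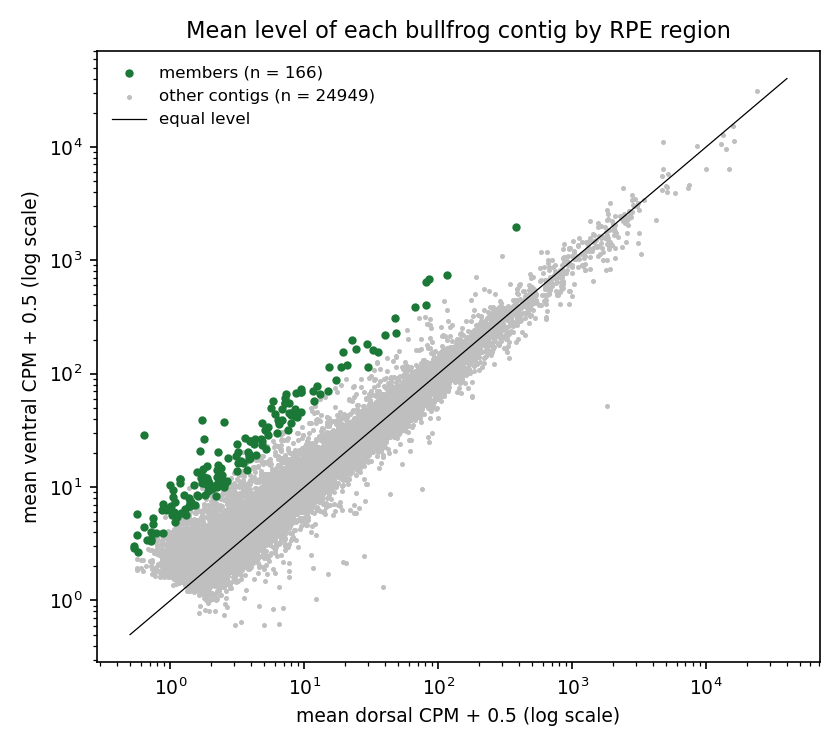
Mean ventral CPM against mean dorsal CPM, each plus 0.5 and on log axes, for every contig. The 166 members (green) lie along the upper edge of the cloud of other contigs (grey) at mean ventral levels from 2.203 to 1970 CPM. The highest of them had 1970 CPM in ventral and 377 CPM in dorsal RPE, while other contigs reached 31038 CPM in ventral RPE.

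The difference in mean log2(CPM + 0.5) had a median of 2.61 over the members and ran from 2.21 to 4.56, against a median of 0.16 over all contigs. It lay between 2.2 and 2.5 in 65 members, between 2.5 and 3 in 67, between 3 and 4 in 30, and at 4 or more in 4. The median shift of all contigs was 0.0096 when libraries were scaled by TMM factors, which offset unequal RNA composition, and the members' median difference was then 2.46. The nearest 5 contigs on the inner side of the threshold had differences of 2.21 each, and the nearest 5 on the outer side had 2.18 to 2.19. The lowest mean ventral level inside was 2.203 CPM. In the member with the smallest gap between regions the lowest ventral library had 5.71 CPM and the highest dorsal library 5.06 CPM. In all, 14 members had no read in at least 1 dorsal library and none had 0 in all 3. In 10 members each dorsal library had 3 reads or fewer, and in 74 each had 10 or more.

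In the quasi-likelihood test of edgeR, adjusted over all contigs, 164 of 166 members were called higher in ventral RPE at an adjusted p under 0.05, where 5.39% of all contigs were so called. DESeq2 called 145 of the members and, over all 25115 contigs, 1223 as higher in ventral RPE. The rule used the same contrast, so these counts carry no further weight. Having each ventral library above each dorsal one was required of members, and 25.4% of all contigs met that requirement. The authors' deposited table marks all 166 as higher in ventral RPE, and 6.94% of all contigs; its log2 fold changes of members, which run dorsal over ventral, had a median of -2.71. The 2 members without a call had edgeR adjusted p of 0.0594 and 0.0643. In the second of them, 8th by ventral level, the ventral libraries had 257, 297 and 124 CPM and the dorsal libraries 31.4, 103 and 10.3 CPM. With dorsal replicate 1 left out the edgeR fit called 97 members and, over all contigs, 464 as higher in ventral RPE.

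The most abundant member was comp22384_c0_seq1|m.15432, a contig with a coding length of 2031 bases. It had 2489, 2591 and 829 CPM in ventral replicates 1 to 3, and 299, 612 and 219 CPM in dorsal replicates 1 to 3. Ventral replicate 3 stood far below the other ventral libraries and dorsal replicate 2 was the highest dorsal one, and the regions did not overlap. The means were 1970 ± 989 CPM in ventral and 377 ± 207 CPM in dorsal RPE (SD, n = 3 each), with an edgeR log2 fold change of 2.22 (SE 0.45, adjusted p = 0.0135). Its call was lost without ventral replicate 2 (edgeR adjusted p = 0.0542), dorsal replicate 1 (0.0712) or dorsal replicate 3 (0.0521).

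The next members by ventral level showed the same profile across libraries. The second had 822, 1004 and 400 CPM in the ventral libraries and 82.2, 239 and 27.9 CPM in the dorsal libraries. The third had 827, 899 and 340 CPM in the ventral libraries and 69.4, 164 and 20.4 CPM in the dorsal libraries. The fourth had 757, 838 and 339 CPM in the ventral libraries and 57.9, 159 and 24.1 CPM in the dorsal libraries. In each of these ventral replicate 3 was the lowest ventral library and dorsal replicate 2 the highest dorsal one, and the regions did not overlap. The fifth stood at 544, 468 and 195 CPM in the ventral libraries and at 70.6, 102 and 67.0 CPM in the dorsal libraries, with the dorsal libraries closer together. Whether reads were shared between close copies was not checked, so values of single abundant members are uncertain to that extent.

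A few members carried much of the summed level. All members together took 1.25, 1.28 and 0.547% of the counts in ventral replicates 1 to 3, and 0.139, 0.281 and 0.0719% in dorsal replicates 1 to 3. The lowest ventral library thus stood at 1.95 times the highest dorsal one, and the extremes of the 6 libraries were 17.8 times apart. The rule separates the regions in each member and so in their sum, and these values and the ratios below are description. The mean sum was 10254 ± 4145 CPM in ventral and 1637 ± 1066 CPM in dorsal RPE (SD, n = 3 each), a ratio of 6.26. With 1 library left out the ratio of the mean sums ran from 4.89 (dorsal replicate 3) to 9.74 (dorsal replicate 2). The 4 most abundant members made up 39.2, 41.6 and 34.9% of that sum in the ventral libraries and 36.7, 41.8 and 40.6% in the dorsal libraries, so the ranges of the regions overlapped. Without these 4 the ratio of the mean sums was 6.34.

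Per length, which allows levels to be compared between contigs, the members had a median of 18.6 reads per kilobase per 1000000 reads (RPKM) in ventral and 2.43 RPKM in dorsal RPE. The medians of all contigs were 8.83 and 7.50 RPKM in ventral and dorsal RPE. The 10 members with the highest ventral RPKM ran from 120 to 970 RPKM in ventral and from 18.2 to 185 RPKM in dorsal RPE, and 6 of them were also among the 10 highest by CPM. The contig comp22384_c0_seq1|m.15432 led this order too, at 970 RPKM in ventral and 185 RPKM in dorsal RPE. The next was a contig of 819 bases at 375 RPKM in ventral and 57.2 RPKM in dorsal RPE.

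The member with the largest difference, comp24532_c0_seq1|m.17463, had another profile. Its coding length was 909 bases. It had 35.2, 36.5 and 44.0 CPM in ventral replicates 1 to 3, and 1.05, 1.84 and 0.736 CPM in dorsal replicates 1 to 3. Here ventral replicate 3 was the highest library, and the lowest ventral library was 19.1 times the highest dorsal one. Its difference was 4.56, and edgeR gave a log2 fold change of 4.78 (SE 0.25, adjusted p = 7.07e-05). It stayed called without any 1 library, with log2 fold changes of 4.54 to 5.26. The contig was picked for its difference in these same libraries, so these values describe it and carry no further weight.

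The second largest difference rested on a pair of libraries. That contig had 36.5, 46.7 and 1.002 CPM in ventral replicates 1 to 3, and 0, 0.184 and 0.210 CPM in dorsal replicates 1 to 3. These values came from 438, 534 and 10 reads in the ventral libraries and from 0, 2 and 2 reads in the dorsal libraries, and its ventral SD of 2.78 on the log2 scale was the largest of all contigs. The third had 52.3, 39.5 and 20.05 CPM in the ventral libraries and 1.16, 4.32 and 0.526 CPM in the dorsal libraries. The fourth, by contrast, had 17.9, 30.5 and 29.6 CPM in the ventral libraries, with replicate 1 the lowest, and 1.05, 2.39 and 0.421 CPM in the dorsal libraries. All 10 largest differences were 3.44 or more, and 1 of these contigs was also among the 10 most abundant.

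**Figure D2:**
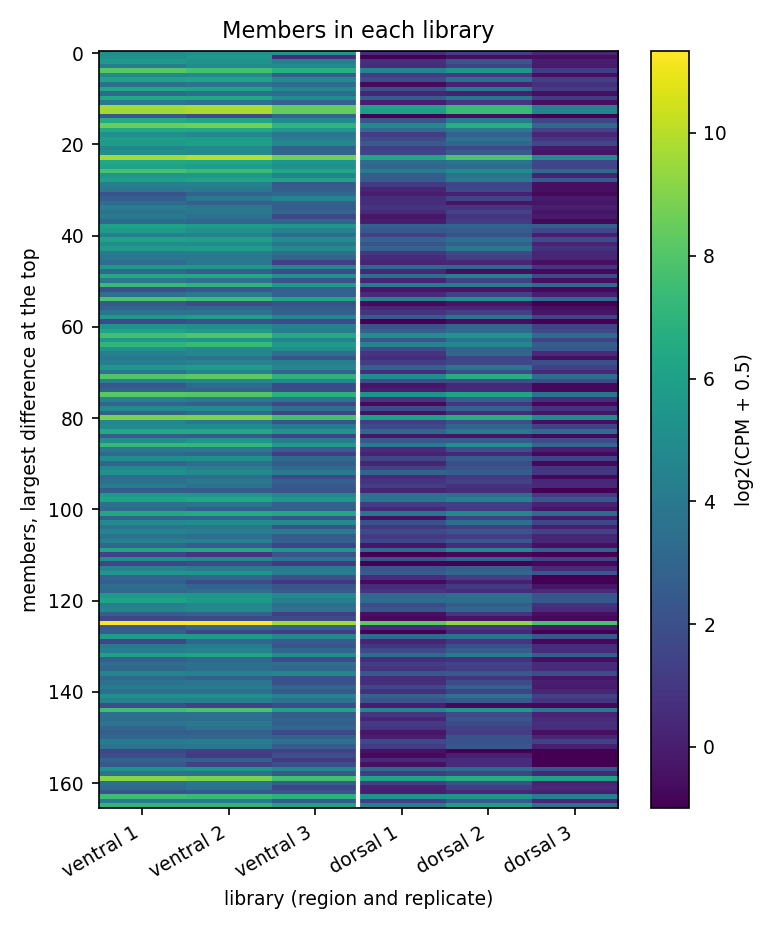
Level of each of the 166 members in each library, as log2(CPM + 0.5), with the ventral libraries on the left, the dorsal libraries on the right and the largest difference at the top. Down most of the plot the column of ventral replicate 3 is darker than those of ventral replicates 1 and 2. Of the dorsal columns replicate 2 is the lightest there and replicate 3 the darkest. The top line departs from this only in the ventral columns, where replicate 3 is the lightest.

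Most members shared 1 order of the libraries within each region. Ventral replicate 3 was the lowest ventral library in 141 of 166 members (84.9%), against 37.9% of all contigs. Dorsal replicate 2 was the highest dorsal library in 146 members (88.0%), against 32.6% of all contigs, and dorsal replicate 3 the lowest in 146 (88.0%), against 41.7%. All of these held together in 118 members (71.1%), against 2606 of all contigs (10.4%). Of the 17 contigs that the mirrored rule gives as strongly higher in dorsal RPE, none showed this order. Their mean ventral level had a median of 0.81 CPM, so the order of their ventral libraries rests on few reads. In 10 of these 17 (58.8%) dorsal replicate 2 was instead the lowest dorsal library, against 32.1% of all contigs. Ventral replicate 3 was the highest ventral library in 5 of the 17 (29.4%), against 33.6% of all contigs, and the lowest in 4 (23.5%). Members are not independent of each other, since they were measured in the same 6 libraries, so the shares describe these libraries and are not counted as replicates. Where libraries tied at 0 reads, the one with the lower replicate number was taken as the lowest.

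The sizes of these deviations were large beside those of other contigs. Relative to a member's own mean in its region, on the log2(CPM + 0.5) scale, the median deviation was 0.34, 0.33 and -0.68 in ventral replicates 1 to 3, and -0.0011, 0.77 and -0.72 in dorsal replicates 1 to 3. Over all contigs no library had a median deviation beyond -0.028 or 0.028. With TMM factors or RLE factors in place of total counts the order held in 116 members, and with 1 member per component it held in 110 of 158. These alternatives were chosen after the data were seen.

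**Figure D3:**
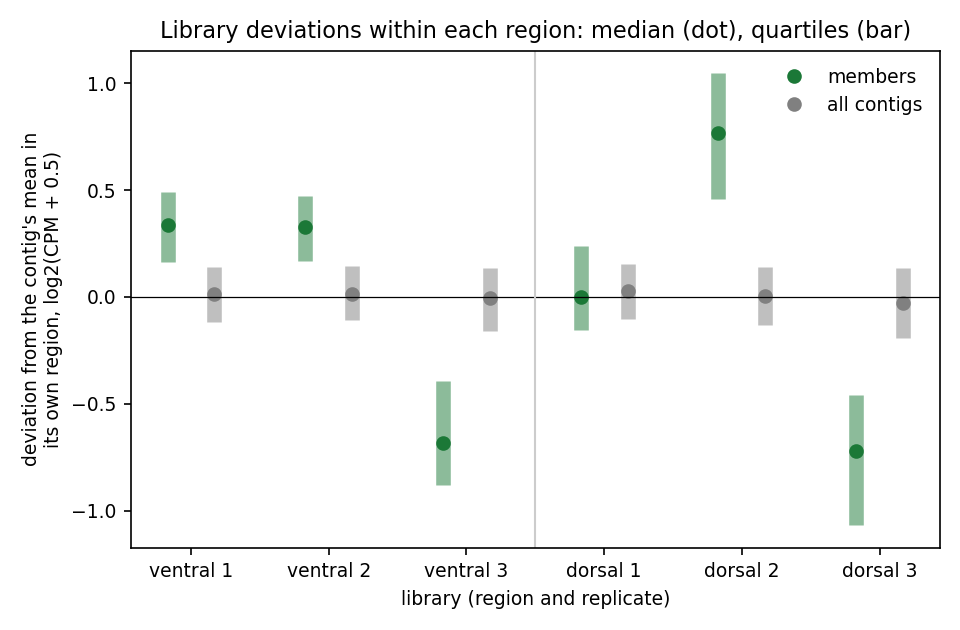
Deviation of each library from the contig's mean in its own region, on the log2(CPM + 0.5) scale, with the median (dot) and the quartiles (bar) over the 166 members in green and over all 25115 contigs in grey. For members ventral replicate 3 has a median of -0.68, dorsal replicate 2 of 0.77 and dorsal replicate 3 of -0.72, while the grey medians lie near 0.

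The shared order was more frequent among abundant members. It was present in 1 of 15 members at 2 to 5 CPM in ventral RPE, 23 of 39 at 5 to 10, 61 of 77 at 10 to 50 and 33 of 35 at 50 or more. A member at 2 to 5 CPM was counted without it only because dorsal replicates 1 and 3 tied at 0 reads. All 10 of the most abundant members and all 10 of the highest by RPKM had it, as did 4 of the 10 with the largest differences. The 48 members without it had a median mean ventral level of 7.70 CPM, against 22.3 CPM in the 118 with it. In 5 members neither was ventral replicate 3 the lowest nor dorsal replicate 2 the highest, and these had mean ventral levels of 2.203 to 9.98 CPM. Over all contigs the order was present in 9.08% at 2 to 5 CPM, 9.83% at 5 to 10, 11.9% at 10 to 50 and 15.9% at 50 or more. In the 15 members at 2 to 5 CPM no dorsal library reached 1 CPM. As no deposited contig fell short of 1 CPM in more than 3 libraries, each of their ventral libraries had to reach it. How low ventral replicate 3 could stand in them was thus limited in advance. The parts of this limit and of depth in their low share were not tested.

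The order was not confined to members. Among other contigs of at least 2 CPM in ventral RPE it occurred in 46.1% of 397 with a difference of 1.5 to 2.2, in 28.6% of 595 at 1 to 1.5 and in 12.2% of 2950 at 0.5 to 1. It occurred in 9.26% of 10119 contigs at 0 to 0.5 and in 8.05% of 6437 at -1 to 0. In the 106 contigs at -2.2 to -1 it was 10.4%. The share was thus higher in each class of larger difference from -1 upwards. The first principal component of all contigs, which took 51.4% of the variance, placed the ventral libraries at -48.2, -55.8 and -30.0 and the dorsal libraries at 46.2, 26.7 and 61.0. Ventral replicate 3 and dorsal replicate 2 were the library of each region nearest to the other region on it, and dorsal replicate 3 the farthest. The members were among the contigs that entered this component, so these positions are not separate from the members' own values. Replicate 3 was also the lowest library of both regions in most members. Ventral replicate 2 was the highest ventral library in 85 members (51.2%), against 32.9% of all contigs, and ventral replicate 1 in 70 (42.2%). Position between the regions and replicate number cannot be told apart in these libraries. Differences in dissection, tissue content or RNA quality between libraries were not measured, and their part in the shared order was not tested.

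**Figure D4:**
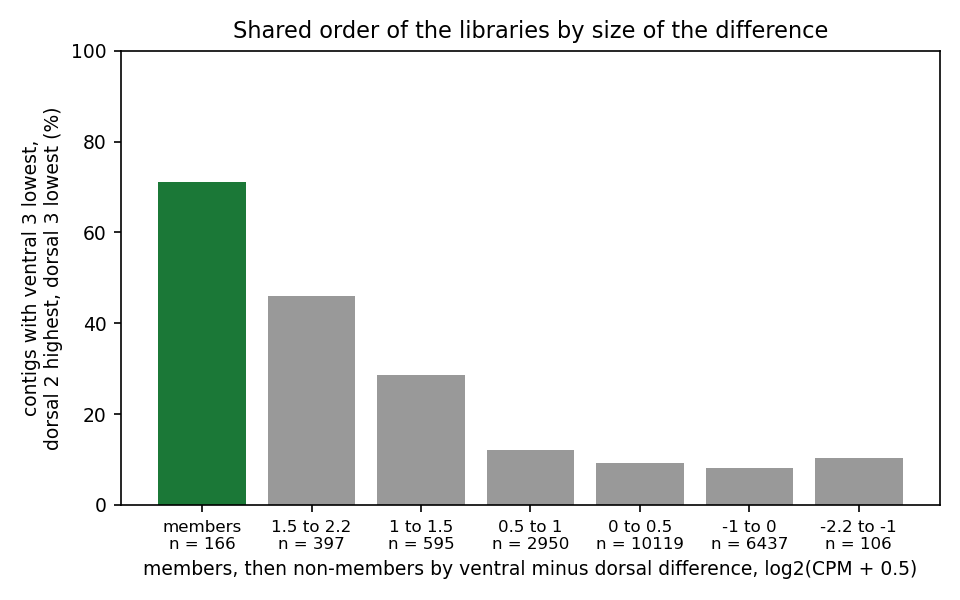
Percentage of contigs in which ventral replicate 3 was the lowest ventral library, dorsal replicate 2 the highest dorsal library and dorsal replicate 3 the lowest dorsal library. Members (green) had this order in 71.1%, and the grey bars show other contigs of at least 2 CPM by their difference, from 46.1% at 1.5 to 2.2 down to 8.05% at -1 to 0, with the number of contigs under each bar; the 106 contigs at -2.2 to -1 had it in 10.4%.

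The spread between libraries of a region was larger in most members than in the median contig. The SD of log2(CPM + 0.5) had a median of 0.62 within ventral and 0.81 within dorsal RPE, against 0.20 and 0.22 over all contigs. It exceeded the median of all contigs in 151 members within ventral and in 159 members within dorsal RPE. A large spread was not confined to members. Other contigs of at least 2 CPM in ventral RPE had medians of 0.47 and 0.51 at a difference of 1.5 to 2.2. At a difference of 1 to 1.5 these were 0.34 within ventral and 0.36 within dorsal RPE. In the 17 contigs strongly higher in dorsal RPE they were 0.40 within ventral and 0.71 within dorsal RPE. Without ventral replicate 3 the median ventral SD of the same members was 0.16, against 0.15 over all contigs. Without dorsal replicate 2 the median dorsal SD of the members was 0.53, and without dorsal replicate 3 it was also 0.53, against 0.19 and 0.15 over all contigs in the same libraries, so leaving out either did not bring the dorsal spread to that of all contigs.

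The highest ventral library was 2.31 times the lowest in the median member, against 1.35 times in the median contig. This ratio was 2 or more in 110 members and under 1.5 in 24. The member with the smallest ventral SD of log2(CPM + 0.5), at 0.082, had 4.17, 4.72 and 4.51 CPM in the ventral libraries. In the dorsal libraries it had 0.466, 0.736 and 0.526 CPM. The member with the smallest ratio, at 1.12, had 64.3, 72.2 and 69.9 CPM in the ventral libraries and 5.70, 15.8 and 5.47 CPM in the dorsal libraries. In it dorsal replicate 2 still stood far above the other dorsal libraries while the ventral libraries were level. Among the 24 even members dorsal replicate 2 was the highest dorsal library in 19 and dorsal replicate 3 the lowest in 16.

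The ranking of members by level was kept between most libraries. The rank correlation of CPM across the 166 members was 0.97 between ventral replicates 1 and 2, and 0.87 and 0.89 between each of these and ventral replicate 3. Across the regions it was 0.87 to 0.93 and within dorsal RPE 0.89 to 0.93. Across 20611 other contigs of at least 2 CPM it was 0.95 to 0.96 within ventral, 0.92 to 0.94 between regions and 0.96 to 0.97 within dorsal RPE. These are correlations across contigs, which share libraries and coding lengths, and are given as description. The median mean level was 16.2 CPM in ventral and 2.04 CPM in dorsal RPE over the members, and 8.6 CPM in ventral and 7.59 CPM in dorsal RPE over those other contigs.

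Which contigs met the rule depended on these libraries. With ventral replicate 3 left out 275 contigs met it, with dorsal replicate 2 left out 279, and with both left out 370, the last an alternative chosen after the data were seen. With dorsal replicate 3 left out 85 did, and 83 of these were members. Without ventral replicate 1 or 2, 127 of the members remained in each case, and 78 of 166 met the rule in all 6 settings that left out 1 library. With TMM factors in the rule 128 contigs met it, all of them members.

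The median coding length of members was above that of all contigs. Every length in the table is a multiple of 3, which makes it the length of a reading frame without untranslated ends. The median was 865.5 bases over the members, with quartiles of 568.5 and 1356 and a range from 303 to 5721, against 615 bases over all contigs and 729 bases over other contigs of at least 2 CPM in ventral RPE. The median of the contigs chosen was 1380 bases with a pseudocount of 2 in the rule and 705 bases with one of 0.25, so its place relative to the other contigs depends on that setting. In 20 members it was 2000 bases or more (12.05%, against 7.79% of all contigs) and in 33 it was under 500 bases (19.9%, against 39.1%). The 3 longest members had 5721, 4083 and 4029 bases, with mean levels of 196, 115 and 386 CPM in ventral and 22.1, 18.1 and 66.4 CPM in dorsal RPE. The 3 shortest had 303, 318 and 324 bases, with mean levels of 2.39, 6.11 and 4.85 CPM in ventral and 0.0350, 0.489 and 0.243 CPM in dorsal RPE.

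Length went with level in members as it did elsewhere. The rank correlation between coding length and mean ventral CPM was 0.72 across the 166 members and 0.73 across all contigs. At matched ventral levels the median length of members was 432 bases at 2 to 5 CPM, 687 at 5 to 10, 969 at 10 to 50 and 1614 at 50 or more. For all contigs at these levels it was 477, 721.5, 1152 and 1521 bases, so members were shorter in the lower 3 classes and longer in the highest. Among the 10 most abundant members 5 had coding lengths between 2000 and 2100 bases (2031, 2031, 2052, 2049 and 2058), a window picked after the values were seen that held 220 of all contigs (0.876%) and no other member. The first 4 members by ventral CPM are among these 5, and each belongs to a component of its own.

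**Figure D5:**
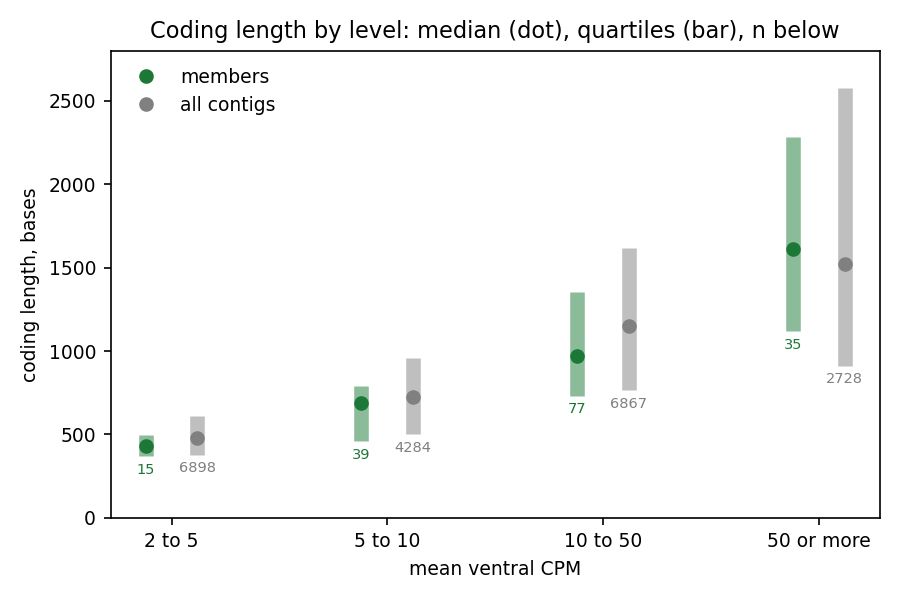
Coding length in bases by class of mean ventral CPM, with the median (dot), the quartiles (bar) and the number of contigs below, for members in green and all contigs in grey. Length climbs with level in both, with medians of 432 to 1614 bases in members and 477 to 1521 bases in all contigs.

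Other relations to level differed between members and the table as a whole. Across members the rank correlation of mean ventral CPM was 0.35 with the difference and 0.46 with the dorsal SD, against -0.03 and -0.38 across all contigs. It was 0.16 with the ventral SD of members and -0.34 across all contigs. The pseudocount shrinks both the difference and the dorsal SD of contigs with dorsal levels near or below 0.5 CPM, as in the members at 2 to 5 CPM in ventral RPE, and the minimum difference limits the range among members. The correlations with the difference and with the dorsal SD are therefore not read as relations of level to spread.

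The 166 members lay in 158 components. Another contig of the same component was in the table for 20 members (12.05%), against 20.8% of all contigs. All members carried subcomponent number 0, as did 99.4% of all contigs, and 157 (94.6%) were on the form numbered 1, against 90.5% of all contigs. Of the components, 151 held 1 member, 6 held 2 and 1 held 3. In 4 of the 7 with several members these lay on different forms, and in the other 3 they were different reading frames of 1 form. Reads of such contigs may have been split or shared, so contigs of a component are not separate measurements.

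Members of 1 component mostly had like profiles across libraries, and the frames of similar length given here also had like levels. The component with 3 members held frames of 804, 804 and 342 bases on 2 forms. The longer frame of the first form had 14.3, 11.5 and 4.01 CPM in the ventral libraries and 0.699, 2.12 and 0.210 CPM in the dorsal libraries. That of the second form had 11.8, 12.3 and 3.81 CPM in the ventral libraries and 1.05, 3.13 and 0.526 CPM in the dorsal libraries. The frame of 342 bases stood lower in CPM, at 6.08, 7.08 and 2.005 CPM in the ventral libraries and 0.233, 1.29 and 0.210 CPM in the dorsal libraries. Per length it was not lower in ventral RPE, at 14.8 RPKM against 12.4 and 11.6 RPKM in the longer frames of the first and second form. In dorsal RPE it had 1.69 RPKM, against 1.25 and 1.95 RPKM. All 3 had ventral replicate 3 as the lowest ventral library and dorsal replicate 2 as the highest dorsal one. The most abundant component with 2 members on separate forms had frames of 1890 and 1875 bases. They stood at 46.7, 56.2 and 25.8 CPM and at 46.8, 58.9 and 26.7 CPM in the ventral libraries, and at 6.64, 13.9 and 1.998 CPM and at 5.24, 14.1 and 2.42 CPM in the dorsal libraries. In all, 14 of the 15 members in these 7 components had the shared order of libraries.

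Frames of a single form mostly had like profiles across libraries, though not the same CPM, which is not scaled by length. In 1 such component a frame of 1440 bases had 90.9, 81.4 and 46.9 CPM in the ventral libraries and 9.43, 15.1 and 2.42 CPM in the dorsal libraries. The other frame, of 1041 bases, had 48.8, 39.97 and 20.8 CPM in the ventral libraries and 4.54, 5.80 and 2.63 CPM in the dorsal libraries. In another component a frame of 831 bases had 93.2, 94.3 and 45.5 CPM in the ventral libraries and 9.08, 16.4 and 10.6 CPM in the dorsal libraries. The other frame of that form, of 363 bases, had 34.2, 43.0 and 17.7 CPM in the ventral libraries. In the dorsal libraries it had 5.12, 5.61 and 3.15 CPM, with dorsal replicate 3 the lowest. The frame of 831 bases was the 1 member of the 15 without the shared order, since dorsal replicate 1 was its lowest dorsal library. Per length, the frames of 831 and 363 bases were close, at 93.5 and 87.3 RPKM in ventral and 14.5 and 12.8 RPKM in dorsal RPE. Those of 1440 and 1041 bases stood at 50.8 and 35.1 RPKM in ventral and 6.24 and 4.15 RPKM in dorsal RPE.

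The 7 components that also held contigs outside the rule contained 12 such contigs. Their differences ran from -0.042 to 2.11 with a median of 1.58, and 11 of 12 were above 0 and 9 were 1 or more. In edgeR 6 of the 12 were called higher in ventral RPE. In 1 component the forms went apart: the member, on form 3, had 19.6, 21.3 and 18.8 CPM in the ventral libraries and 1.98, 2.58 and 3.47 CPM in the dorsal libraries. Form 4 of that component had 9.83, 11.3 and 8.72 CPM in the ventral libraries and 8.62, 10.9 and 11.2 CPM in the dorsal libraries, so its regions overlapped. Forms 1 and 2 had differences of 0.59 and 0.073, and none of these 3 was called in edgeR (adjusted p = 0.146 to 0.762).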

How the data were processed

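The members and lists were chosen with earlier results of these data known. Bowtie 0.12.7 and edgeR are named in the submitters' processing notes, per the labels. For the transcript set, the sources used here give no name. The authors deposited a count per contig and library whose commas were taken out. Deposited beside it are a score per library (RPKM as whole numbers), mean RPKM per region, log2 fold changes and p-values from their own test. All 150690 scores lay within 0.5 plus 1% of the count over length and column total. No contig was under 1 CPM in more than 3 libraries, as a filter before deposit would leave it, and filterByExpr removed no member. A member under 1 CPM in all dorsal libraries could meet such a filter only through its ventral libraries. Each of these then had to reach 1 CPM. Columns were matched to samples by title.

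CPM and RPKM here use column totals, and log2 levels a pseudocount of 0.5. Ventral was tested against dorsal RPE with the quasi-likelihood test of edgeR 4.0.16 (R 4.3.3, TMM scaling, Benjamini-Hochberg over all contigs, threshold 0.05), checked on simulated counts. An SE is the log2 fold change over the square root of F. Alternatives were RLE and total count scaling, DESeq2 1.42.0, a replicate block, no filter on low counts, an adjusted p of 0.01, other pseudocounts and thresholds of the rule, counts summed over components, and leaving out each library. Identifiers are printed for the highest ventral CPM and the largest difference, and other members by rank of level, difference, length or spread, by nearness to a threshold, or by shared component.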

Additional observations from a re-analysis of the deposited data

How the results depend on the processing

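The number of members was 63 with a pseudocount of 2 and 34 with a difference of at least 3; it was 370 without ventral replicate 3 and dorsal replicate 2, and 85 to 279 with each library left out. An adjusted p under 0.01 in edgeR left 96 members called, 385 contigs higher in ventral RPE and 825 contigs in all, against 164, 1353 and 2801 at 0.05. With each library left out the counts were 97 to 166 members called, 464 to 1545 contigs higher in ventral RPE and 991 to 2765 in all; the lowest of these were without dorsal replicate 1 (97 and 464) and without ventral replicate 2 (991). Total count scaling called 2456 of 3214 contigs as higher in ventral RPE, against 1353 of 2801 with TMM. Contigs higher in ventral RPE were the smaller part of the calls with TMM and the larger part with total count scaling. They were also the larger part without ventral replicate 1 (918 of 1732), ventral replicate 3 (1545 of 2765) or dorsal replicate 2 (1108 of 1973). They were the smaller part without ventral replicate 2 (491 of 991), dorsal replicate 1 (464 of 1133) or dorsal replicate 3 (851 of 1863). With the replicate block 166 members, 1817 contigs higher in ventral RPE and 3634 contigs in all were called. Deviations of same-numbered ventral and dorsal libraries correlated at -0.050, 0.31 and 0.22 across contigs, and ventral and dorsal replicates 2 and 3, but not 1, correlated best with their own number. The labels do not say what a number stands for, so the libraries were not treated as paired. Dorsal counts of 3 or fewer in 10 members limit the size of their differences. The cause of these changes was not tested.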
